A study of Neurospora crassa with 2 samples.

Results

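Genes of the spliceosome and of pre-mRNA 3' end processing were compared in 2 strains of the filamentous ascomycete Neurospora crassa, the wild type and a upf1 knockout, called the mutant below. They were chosen by gene description alone, from words for splicing, snRNPs, pre-mRNA and polyadenylation, with tRNA splicing, U3 and rRNA entries left out. The description matched 66 of 9454 genes in the deposited table, after 4 entries for tRNA splicing were set aside. Both strains were grown in 2% glucose medium in constant light, hyphae were taken at an age of 2 days, and polyadenylated RNA from 3 flasks was pooled into 1 library per strain. No replicate check exists for any difference, no p-value can be given, and each 95% interval beside a ratio (Clopper-Pearson, exact) holds counting error alone.

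Introns are removed by the spliceosome, which is built anew on each pre-mRNA from small nuclear ribonucleoproteins (snRNPs) named U1, U2, U4, U5 and U6 after their RNAs. U1 and U2 recognise the splice site and the branch site, the U4/U6.U5 tri-snRNP joins them, and the Prp19 complex with Cwc proteins and helicases drives the change to the catalytic form. A separate machinery cleaves the 3' end and adds the poly(A) tail. UPF1 is the RNA helicase of nonsense-mediated decay, which degrades transcripts with premature stop codons, among them products of incomplete or alternative splicing. In animals and plants many splicing regulators are themselves targets of that pathway.

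The table held 56306422 reads of the mutant library and 28189643 of the wild-type library. The targeted gene, NCU04242 (symbol prd-6), had 654 reads and 2.78 RPKM in the mutant library against 2641 reads and 22.6 RPKM in the wild-type library, 8.15-fold lower (7.48 to 8.89). RPKM are reads scaled to the length of the gene model, in kilobases, and to the library total. The deleted part of upf1 is not stated in the labels. Conidia are the asexual spores that hyphae can carry. All 6 marker genes of conidiation examined were detected in both libraries. At least 2-fold higher in the mutant were 4 of them (con-6, con-8, con-10 and con-13), and 2 were at least 2-fold lower (eas and fl). Summed, the 6 stood at 2529 RPKM in the mutant against 16070, most of it the hydrophobin gene eas, at 1619 against 15983. Without eas the sum was 911 against 86.8, with con-6 at 642 against 27.4 and con-8 at 228 against 6.25. The gene fl stood at 17.7 against 47.2. The part of conidia in the values below was not tested, and in bulk RNA a change in cell make-up and a change in RNA per cell cannot be told apart.

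As a group the splicing and processing genes were moderately expressed and mostly lay within 2-fold between the strains, 59 of 66 (89.4%) beside 5746 of all 7367 eligible genes. All 66 had at least 5 RPKM in at least 1 library, the minimum used here, and so were counted as eligible. Levels ran from 11.6 to 264 RPKM in the wild-type library and from 12.1 to 424 RPKM in the mutant library. The median member stood at 38.0 RPKM in the wild type and 44.1 in the mutant, against 23.2 and 26.7 for all eligible genes. The least covered value rested on 468 reads, so counting error is small beside most of the ratios. Pairs of values below give the mutant first. Ratios were taken as log2((knockout RPKM + 1)/(wild-type RPKM + 1)).

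7 of the 66 genes (10.6%) reached 2-fold on the higher side in the mutant library, where 16.5% of all eligible genes were, and none was 2-fold lower, where 5.52% of all eligible genes were. The members' share on the higher side was thus below that of all eligible genes. Those include genes below 11.6 RPKM in the wild type, where no member lay. In the lowest, middle and highest ranges of wild-type level, each that of 22 members, 12.9%, 10.7% and 7.31% of eligible genes were 2-fold higher. The members that were 2-fold higher in these ranges were 2, 2 and 3 of 22, so the shortfall did not hold at each level. At 1.5-fold, 19 members (28.8%) were higher and none lower, beside 28.8% and 12.7% of all eligible genes. The median log2 ratio of the members was 0.28 (quartiles -0.12 and 0.64), and that of all eligible genes was 0.15 (quartiles -0.28 and 0.69). Log2 ratios were above 0 for 45 members (68.2%) and for 59.4% of all eligible genes. With TMM scaling the shares were 56.1% of members and 48.9% of all eligible genes. Median centring gave 56.1% and 50.0%, and length centring 57.6% and 50.0%. With a standard deviation of 0.57 across genes, against 0.93 for all eligible genes, the members were also less spread out. The libraries' scaling bears on such small offsets: with TMM scaling the median of all eligible genes moved by more than 0.1, to -0.020, and that of the members was then 0.10.

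**Figure D1:**
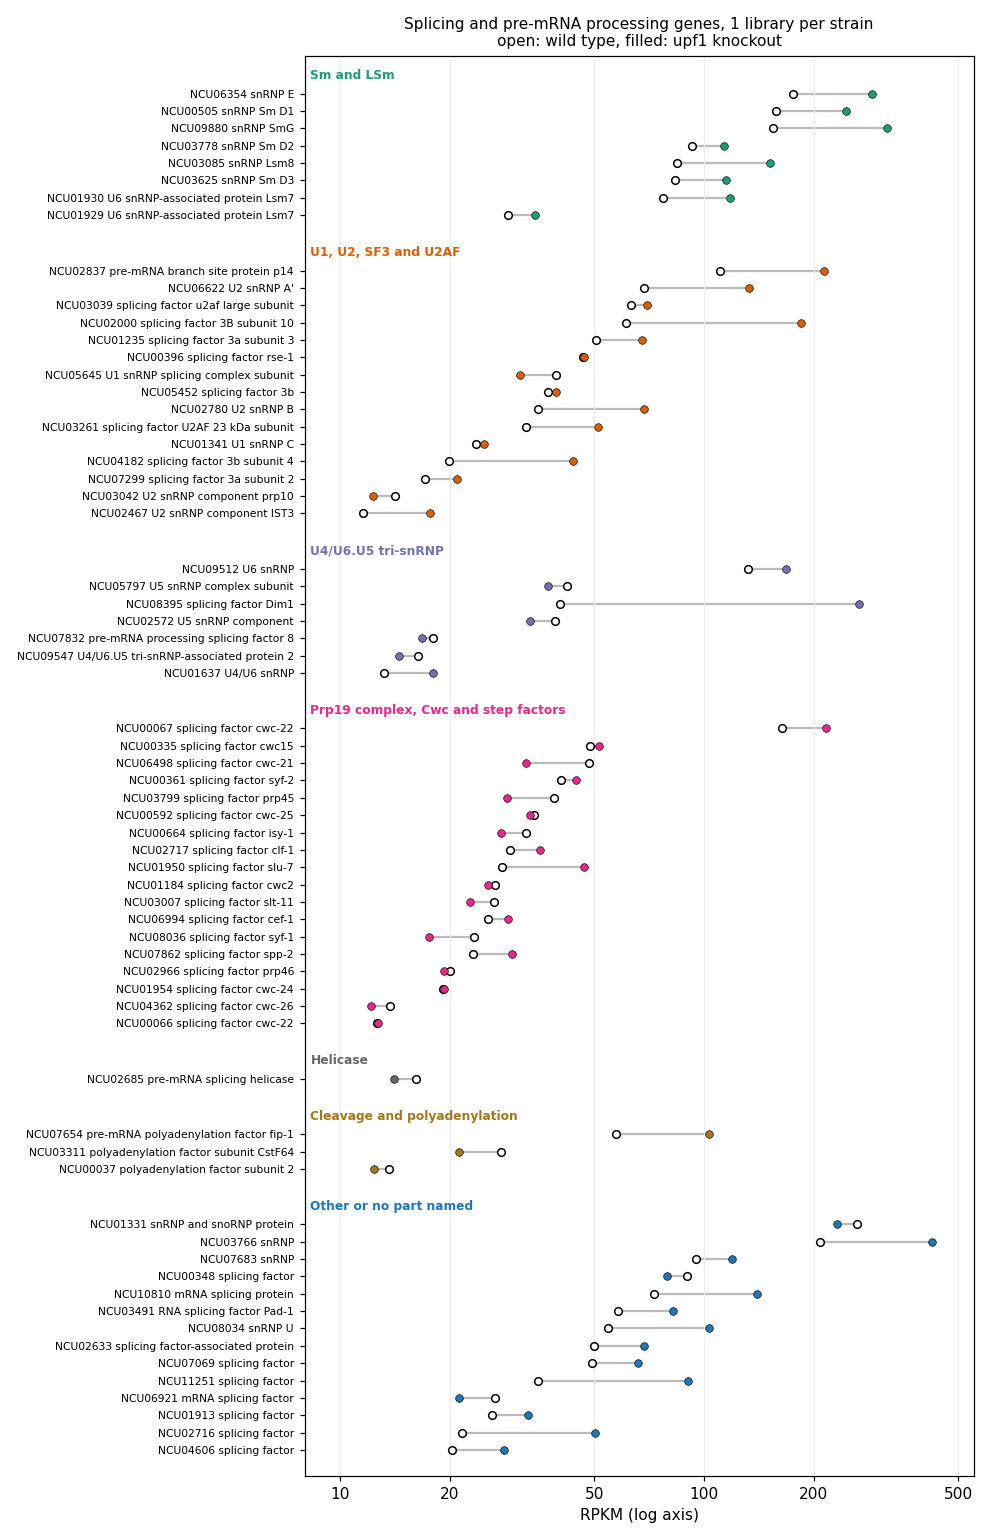
RPKM (log axis) of the 66 splicing and processing genes in the wild-type library (open points) and the upf1 knockout library (filled points), grouped by role and ordered by wild-type level within each group. The widest gap is that of Dim1, from 40.3 to 266 RPKM, and most other genes lie within 2-fold of their wild-type value.

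The Sm and LSm proteins form the rings that bind the snRNAs. Genes named for them were higher in the mutant library in 8 of 8 cases, beside 59.4% of all eligible genes. With length centring, explained below, the count was 7 of 8, beside 50.0%, and Sm D2 was at -0.05. The median log2 ratio was 0.62, with a range of 0.24 to 1.04. Where 16.5% of all eligible genes were at least 2-fold higher, 1 of the 8 was. This was the gene of SmG, NCU09880, at 318 RPKM from 18838 reads in the mutant against 154 RPKM from 4528 reads in the wild type, 2.06-fold higher (2.00 to 2.13). The gene spans bases 6358980 to 6360230 of supercontig 1 (minus strand), in the table's coordinates, for which no build is named. SmG shares 337 bp with NCU10125 on the same strand, itself at 112 RPKM against 33.6, and how reads were divided between them is not stated.

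Sm E (NCU06354) stood at 290 RPKM in the mutant against 175 in the wild type. The other ring subunits named in the table had smaller ratios: Sm D1 (NCU00505), at 246 against 157 RPKM, was 1.56-fold higher (1.51 to 1.61), Sm D3 (NCU03625) stood at 115 against 83.4, and Sm D2 (NCU03778) at 114 against 93.0. Proteins of a single ring were thus encoded by transcripts that differed by unequal amounts between the libraries, from 1.22-fold for Sm D2 to 2.06-fold for SmG. Sm E, Sm D2 and Sm D3 overlap neighbouring gene models on the opposite strand, and the use of strand in counting is not stated.

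LSm proteins 2 to 8 form the ring on U6 snRNA. Lsm8 (NCU03085), with 3642 and 1002 reads and a gene model of 403 bp, stood at 152 RPKM in the mutant against 84.2 in the wild type, 1.80-fold higher (1.68 to 1.93). Its log2 ratio was 0.84 as deposited and 0.28 with length centring. Lsm7 is the product name of a pair of neighbours on opposite strands that overlap by 188 bp, NCU01930 with a gene model of 1323 bp and NCU01929 with 2766 bp. NCU01930 had 118 RPKM in the mutant against 77.1 in the wild type, and NCU01929 had 34.4 against 28.9. The files do not say which of them encodes the Lsm7 protein.

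Among the 15 genes of the U1 and U2 snRNPs, SF3 and U2AF, which define the splice sites and the branch site, 13 had log2 ratios above 0 (11 with length centring, 9 with TMM scaling), beside 59.4% of all eligible genes (50.0% and 48.9%). At least 2-fold higher were 2 of the 15, a share near the 16.5% of all eligible genes. The median was 0.41, with a range of -0.32 to 1.59. Both genes past 2-fold encode subunits of SF3b, the part of U2 snRNP that clamps the branch site. SF3b subunit 10 (NCU02000, minus strand of supercontig 1, 1720671 to 1721335) stood at 185 RPKM from 5769 reads in the mutant against 61.1 RPKM from 942 reads in the wild type. Its ratio was 3.03-fold (2.83 to 3.25). SF3b subunit 4 (NCU04182, plus strand of supercontig 5, 5121724 to 5123984), an RNA-binding protein, stood at 43.8 against 19.9 RPKM, from 5705 and 1286 reads, 2.20-fold higher (2.07 to 2.34).

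The remaining SF3b genes did not share this size of difference. The branch site protein p14 (NCU02837) stood at 214 RPKM in the mutant against 111 in the wild type, 1.93-fold higher (1.87 to 2.00). In contrast rse-1 (NCU00396), which in budding yeast is the large scaffold subunit of SF3b, stood at 47.0 against 46.5 RPKM, and prp10 (NCU03042), in fission yeast the branch site clamp itself, at 12.3 against 14.2. NCU05452, named splicing factor 3b without a subunit, had 39.2 and 37.4 RPKM. Over these 6 genes of SF3b the ratio ran from 0.870 to 3.03: subunit 10, subunit 4 and p14 were at 1.93-fold or above, and the other 3 between 0.870 and 1.05. With length centring the log2 ratios were 1.03 for subunit 10, 1.05 for subunit 4 and 0.63 for p14. Those of rse-1, prp10 and NCU05452 were then 0.12, -0.08 and 0.02.

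The U2 snRNP proteins A' and B lay just outside the 2-fold line. U2 A' (NCU06622) had 133 RPKM against 68.4 (log2 ratio 0.95), and U2 B (NCU02780) had 68.2 against 34.9 (log2 ratio 0.95). Just inside it were SmG at 1.04 and NCU03766, described below, at 1.02, so the count of 7 turns on small steps. U2 B shares 420 bp with NCU02779 on the opposite strand, which stood at 41.2 against 20.6 RPKM. IST3 (NCU02467), a U2-associated factor, had 17.7 RPKM against 11.6, a ratio of 1.53 (1.39 to 1.68).

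U2AF, the heterodimer that binds the 3' splice site, showed unequal subunits: the 23 kDa subunit (NCU03261) stood at 51.0 against 32.4 RPKM, 1.57-fold higher (1.48 to 1.68), and the large subunit (NCU03039) at 69.8 against 62.9, 1.11-fold higher (1.07 to 1.15). The U1 genes were near or below their wild-type values. U1 C (NCU01341), the subunit that steadies U1 on the 5' splice site, had 24.8 RPKM in the mutant against 23.7 in the wild type, with an interval of 0.972 to 1.13 that included 1. The other U1 subunit in the table, NCU05645, had 31.2 against 39.2. Of SF3a, which bridges U2 snRNP and SF3b, subunit 2 (NCU07299) had 20.9 RPKM against 17.1 and subunit 3 (NCU01235) had 67.4 against 50.5.

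The U4/U6.U5 tri-snRNP held the gene with the largest ratio of all 66. Dim1 (NCU08395, known as Dib1 in budding yeast) is a small thioredoxin-fold protein of the tri-snRNP. The gene spans bases 3146239 to 3147641 of supercontig 7 (plus strand), with a gene model of 1307 bp and no overlap with another model. The library of the mutant gave 20717 reads and 266 RPKM, and that of the wild type 1556 reads and 40.3 RPKM. This is 6.60-fold higher (6.26 to 6.95), a log2 ratio of 2.69 that exceeded those of 98.6% of all eligible genes. Its neighbours, at 3.28 against 2.52 RPKM on one side and 19.8 against 27.2 on the other, did not share the difference.

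Dim1 stood alone in its group, whose median log2 ratio was -0.09 (0.0096 with length centring). Prp8 (NCU07832, pre-mRNA processing splicing factor 8), the large protein that cradles the catalytic centre, had 16.8 RPKM in the mutant against 18.0 in the wild type, a ratio of 0.933 (0.898 to 0.970). The U5 entries NCU02572 and NCU05797 had 33.2 against 38.9 RPKM and 37.4 against 42.1. The U4/U6 protein NCU01637 had 18.0 against 13.2, 1.37-fold higher, and the U6 protein NCU09512 had 168 against 132. NCU09547, named tri-snRNP-associated protein 2, had 14.6 against 16.3. Thus 6 of the 7 genes lay within 1.5-fold of their wild-type level.

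The largest group, 18 genes of the Prp19 complex, Cwc proteins and factors of the catalytic steps, had no member past 2-fold. Among all eligible genes 16.5% were 2-fold higher and 5.52% lower. Log2 ratios were above 0 for 9 of the 18 (5 with TMM scaling, median centring or length centring), beside 59.4% of all eligible genes (48.9%, 50.0% and 50.0%), with a median of -0.01 and a range of -0.56 to 0.73. At the upper end was slu-7 (NCU01950), which acts in the choice of the 3' splice site at the second step, with 46.7 RPKM in the mutant against 27.8 in the wild type, 1.68-fold higher (1.57 to 1.80). At the lower end was cwc-21 (NCU06498), a small protein near the catalytic centre in budding yeast, with 32.4 against 48.4 RPKM. Its ratio of 1.49-fold lower (1.40 to 1.59) was the largest on the lower side among the 66 genes.

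For prp46 (NCU02966), a core protein of the Prp19-associated complex, the libraries gave 19.4 and 20.1 RPKM, for cef-1 (NCU06994) 29.0 and 25.5, for clf-1 (NCU02717) 35.3 and 29.3, and for syf-1 (NCU08036) 17.6 and 23.3, each in the order mutant and wild type. prp45 (NCU03799) was 1.34-fold lower (1.27 to 1.42), at 28.8 against 38.7 RPKM. The name cwc-22 is borne by a pair of divergent neighbours with very different levels. NCU00067, with a gene model of 775 bp, stood at 216 against 164 RPKM, and NCU00066, with 3459 bp and no intron, at 12.7 against 12.6. Which of them encodes Cwc22, a factor that in budding yeast is needed for the first catalytic step, is not given by the files.

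The single entry named as a splicing helicase, NCU02685, with a gene model of 6833 bp, had 14.1 RPKM in the mutant against 16.1 in the wild type (ratio 0.872, 0.835 to 0.910). No entry of the 66 was named as an SR protein or another regulator of alternative splicing. The 3 cleavage and polyadenylation genes divided. fip-1 (NCU07654), which tethers poly(A) polymerase to the cleavage complex, stood at 103 RPKM against 57.3, 1.80-fold higher (1.72 to 1.89). CstF64 (NCU03311), which binds the downstream element of the cleavage site, stood at 21.2 against 27.7, 1.30-fold lower (1.22 to 1.40), and polyadenylation factor subunit 2 (NCU00037) at 12.4 against 13.6.

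**Figure D2:**
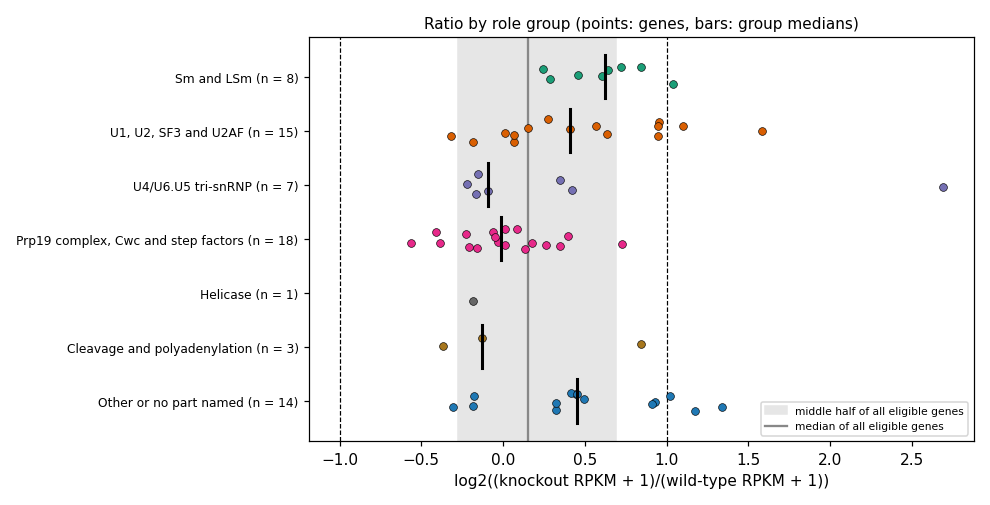
Log2 ratio of knockout over wild-type RPKM (pseudocount 1) of each gene, by role group. Black bars are group medians, the grey band and line the quartiles (-0.28 and 0.69) and median (0.15) of all eligible genes, and dashed lines mark 2-fold. The Sm and LSm genes lie on the right of 0, and the Prp19 and Cwc genes on both sides of it, 9 of 18 above 0.

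The remaining 14 genes have product names that give no part of the spliceosome. At least 2-fold higher were 3 of them, beside 16.5% of all eligible genes, and 2 with length centring, beside 11.6%. NCU11251 (pre-mRNA splicing factor, minus strand of supercontig 1, 4872430 to 4874467) stood at 90.1 RPKM from 10187 reads in the mutant against 35.0 RPKM from 1961 reads in the wild type, 2.57-fold higher (2.45 to 2.70). NCU02716, of the same product name at bases 3298381 to 3300857 of supercontig 1 (minus strand), stood at 50.3 against 21.7 RPKM, 2.32-fold higher (2.19 to 2.45). The divergent neighbour of NCU02716, 465 bp away, is clf-1, whose ratio was 1.21 (1.14 to 1.27). 6 entries carry the bare name pre-mRNA splicing factor, and the other 4 of them lay within 1.5-fold.

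NCU03766, named small nuclear ribonucleoprotein, is the most abundant of the 66 in the mutant library, at 424 RPKM against 208 in the wild type. Its call depends on the length behind RPKM. Reads and RPKM together imply a gene model of 450 bp in the mutant column and 526 bp in the wild-type column, and the reads themselves, 11383 and 3237, gave a ratio of 1.74 (1.68 to 1.81). With 1 length for both libraries 6 members passed 2-fold, where 16.5% of all eligible genes did. NCU01331, a protein shared by snRNPs and snoRNPs, was the most abundant in the wild type, at 264 RPKM, and had 232 in the mutant. NCU10810, named mRNA splicing protein, had 140 against 72.8, and Pad-1 (NCU03491), a splicing factor by its product name, 82.2 against 57.9.

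Features that the choice of genes did not use were then examined. Gene model length was related to the ratio across the table: the median log2 ratio of eligible genes went from 0.56 in the shortest eighth, up to 936 bp, to -0.10 in the longest, from 3106 bp. The members showed a like relation, with a Spearman rho of -0.24 between length and log2 ratio over 66 genes and -0.25 over 7367 genes, as a description of genes that share the same pair of libraries. Sm and LSm gene models had a median of 1006 bp and Prp19 and Cwc models 1447 bp. After each gene was centred on the median of its length class (length centring), the medians of those groups were 0.27 and -0.22, and that of the U1, U2, SF3 and U2AF genes was 0.25. The Prp19 and Cwc genes kept the lowest median of these 3 groups, and the other medians lay close together.

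Level and ratio were correlated with opposite signs among the members and among all eligible genes. Over the 66 members the Spearman rho between wild-type RPKM and log2 ratio was 0.35, and over the 7367 eligible genes it was -0.38. The wild-type level is also the denominator of the ratio, which the points share. Genes below 5 RPKM in the wild type were eligible only where the mutant reached 5 RPKM. All members had at least 11.6 RPKM in the wild type, so the 2 values cover unlike ranges of level. With the mean RPKM of both libraries as the level, rho was 0.56 for members and -0.13 for all eligible genes. Among the 22 members with the highest wild-type level, 50.5 to 264 RPKM, 20 had a log2 ratio above 0 (17 with length centring, 19 with TMM scaling) and the median was 0.62. The 1615 eligible genes in the same range of level had a median of -0.03, and 48.0% of them were above 0 (34.0% with length centring, 36.5% with TMM scaling). For the middle 22 members, starting at 26.6 RPKM, the medians were 0.07 for members and 0.07 for all genes of that level, and for the lowest 22, from 11.6 RPKM, 0.01 and 0.12. The abundant members also had short gene models, of 1006 bp at the median against 1551 bp for all genes of that level. With length centring the medians in the top range were 0.28 for members and -0.23 for all genes.

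**Figure D3:**
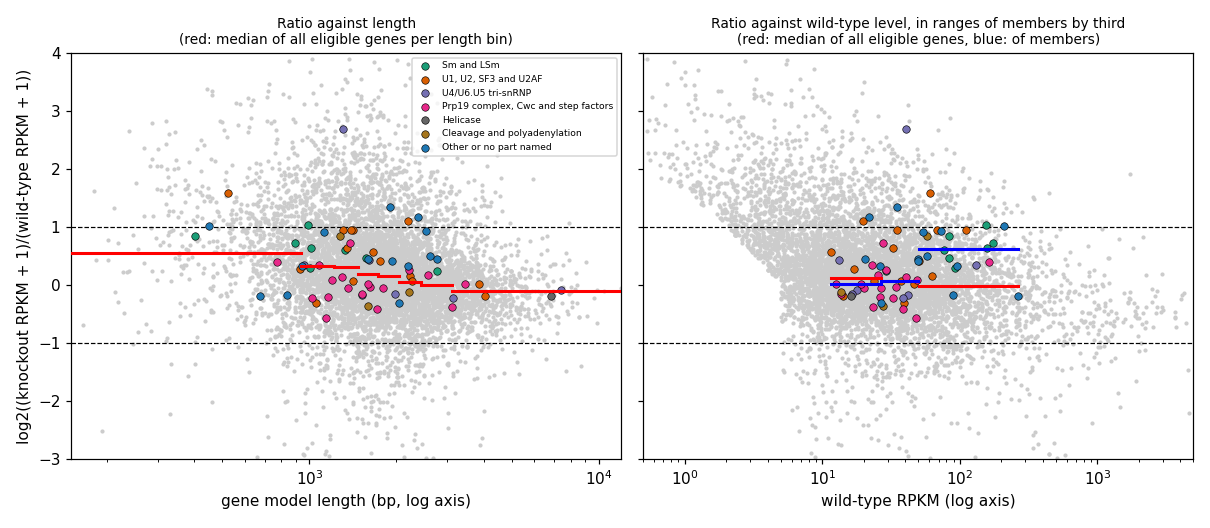
Log2 ratio (knockout over wild-type RPKM, pseudocount 1) against gene model length in bp and against wild-type RPKM, both on log axes, with members coloured by role and the other eligible genes in grey; the vertical axis is limited to -3 to 4, which leaves out the most extreme grey points. Red lines are medians of all eligible genes per length bin (left) or in the level range of each 22 members (right), and blue lines are the members' medians, which part from the red line in the top range (0.62 against -0.03).

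A gene was taken to hold an intron where its span on the supercontig exceeded the gene model length implied by RPKM. By this measure 52 of the 66 members (78.8%) contained an intron, as did 80.6% of all eligible genes. All 7 genes past 2-fold were among the 52, and none of the 14 without an intron passed, while among all eligible genes 17.0% of those with an intron and 14.4% of those without were 2-fold higher. The 14 intron-free members had a median wild-type level of 16.7 RPKM and the 52 others 47.4, so introns and level ran together. A neighbouring gene model overlapped 18 of the 66 members (27.3%) and 11.4% of all eligible genes. Of the 48 members without an overlap 6 passed 2-fold, where 16.7% of all such genes did.

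The calls near the 2-fold line depended on how the libraries were scaled. Dim1, SF3b subunit 10 and NCU11251 stayed at least 2-fold higher under each pseudocount and scaling tried. With TMM scaling these 3 were the members past 2-fold, where 12.9% of all eligible genes were higher and 7.79% lower. Centring on the median gene left 4 members higher, where 13.3% of all eligible genes were higher and 7.43% lower. With length centring the number was 5, SF3b subunit 4 and NCU02716 included, where 11.6% were higher and 8.2% lower. No member was 2-fold lower under these 3 settings.

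**Figure D4:**
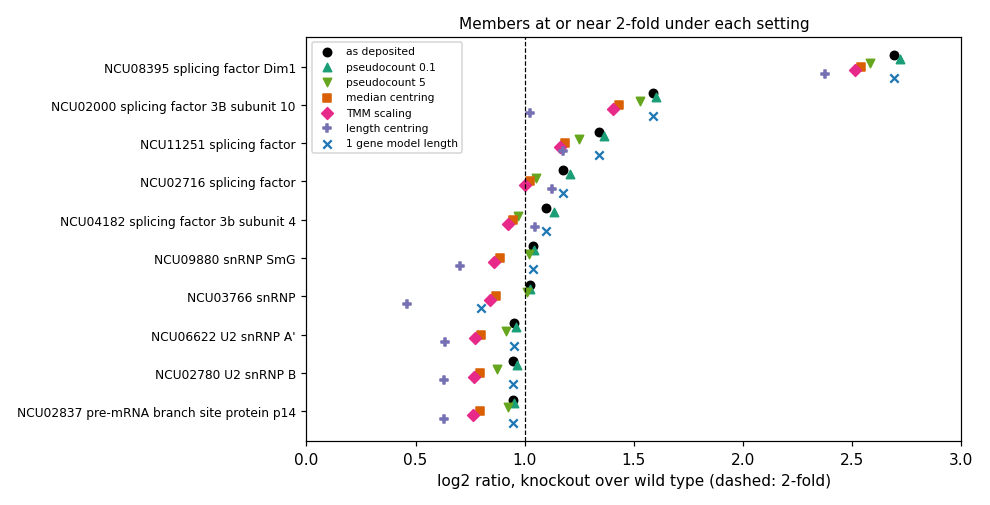
Log2 ratio of knockout over wild type for the 7 genes past 2-fold and the 3 nearest below it, under the deposited scaling and 6 alternatives. The dashed line marks 2-fold; Dim1 lies between 2.37 and 2.72 in all of them, and SmG falls to 0.70 with length centring.

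Genes of related steps whose names do not hold the words of the choice were sought with a name list. It covered capping, cap binding, export, poly(A) polymerase, Cwf and Cwc proteins, LSm6, DEAD/DEAH box helicases and lariat debranching. The names of the DEAD/DEAH box helicases give no step of splicing or processing. The list matched 27 genes, of which 26 were eligible. At least 2-fold higher were 3 (11.5%) and lower was 1 (3.85%), beside 16.5% and 5.52% of all eligible genes. Without the names that belong to other processes, such as actin capping, 21 eligible genes remained. The same 3 were higher (14.3%) and 1 lower (4.76%), and the median log2 ratio was 0.31. The spliceosomal protein cwf14 (NCU00417) stood at 220 RPKM in the mutant against 54.4 in the wild type, 4.05-fold higher (3.84 to 4.27), but its model overlaps NCU00416. The DEAD/DEAH box helicase gene NCU04472 had 44.4 against 11.7 RPKM, and the peptidyl-prolyl isomerase cwc-27 (NCU08514) 73.1 against 32.2. The ratio of cwc-27 fell short of 2-fold with TMM scaling (log2 ratio 0.98) and with length centring (0.995), which left 2 higher in the list.

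On the lower side of that list was NCU08022, a poly(A) polymerase by name, at 14.8 RPKM in the mutant against 31.3 in the wild type (log2 ratio -1.03). The other poly(A) polymerase gene, un-17 (NCU08983), went the opposite way, with 55.9 against 35.7 RPKM. LSm6 (NCU10352), which is in the U6 ring with Lsm7 and Lsm8, had 344 against 211 RPKM, 1.63-fold higher (1.58 to 1.68), within the range of the Sm and LSm genes above. Its log2 ratio was 0.70 as deposited and 0.14 with length centring. The LSm6 model shares 147 bp with NCU09364 on the opposite strand. RNA lariat debranching enzyme (NCU03409), which opens excised introns, had 9.96 against 7.25 RPKM. The capping enzyme subunit (NCU06260) had 14.5 against 13.9 and the cap methyltransferase (NCU03971) 29.9 against 30.1.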

How the data were processed

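Gene-level values of 2 pooled libraries, 1 per strain, were used. Per the file headers, the authors deposited raw read counts and RPKM values per gene, and the columns were assigned to strains by name, since they begin like the sample titles. The submitters' processing notes name Bowtie 0.12.2. No source used here states the build, annotation, counting method, use of strand or treatment of reads shared by paralogues. Library totals (59645570 and 29546475 reads) and gene model lengths were recovered by dividing reads by RPKM. Symbols came from RefSeq's NC12 assembly table, in which all 66 members were found.

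Log2 ratios of RPKM were taken, knockout (called the mutant) over wild type, with 1 added to each value. Eligible genes reached 5 RPKM in 1 or both libraries. Printed folds are reads over library totals, with exact 95% Clopper-Pearson intervals (SciPy 1.17.1). Reads carry no molecular identifiers and are not independent, so these intervals hold counting error alone. A count of 0 allows 3 reads, or 0.0503 RPKM (mutant) and 0.102 RPKM (wild type) for a gene of 1 kb. Alternatives were TMM scaling (edgeR 4.0.16), subtraction of the median ratio, pseudocounts of 0.1 and 5, a minimum of 20 RPKM or none, centring in 8 bins of gene model length, and genes without overlapping models. The computation was tested on simulated data.

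Members, lists, role groups and tests were chosen with earlier results of these data known. Role groups were assigned by product name. The rule for named genes took members past 2-fold, the most abundant and the 2 most different of each role group, core factors by name, and the 2 members on each side of the 2-fold line, 24 genes; others are named by role, after their values were seen. No sequences were used here.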

Additional observations from a re-analysis of the deposited data

How the results depend on the processing

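Of the members, 7 were at least 2-fold higher as deposited, with a pseudocount of 0.1, without a filter and with a filter at 20 RPKM (56 members). The shares of all genes counted were then 16.5%, 17.8%, 14.9% and 16.2%. With a pseudocount of 5, without overlapping gene models (48 members) or with 1 gene model length, 6 were higher, beside 11.3%, 16.7% and 16.5%. Length centring left 5, median centring 4 and TMM scaling 3, beside 11.6%, 13.3% and 12.9%. Under all of these 0 were 2-fold lower, where 4.07% (pseudocount 5) to 8.2% (length centring) of all genes counted were. The median log2 ratio of the members, 0.28, was 0.13 with median centring, 0.10 with TMM scaling and 0.11 with length centring. With TMM scaling and with median centring, role group medians were 0.44 and 0.47 for Sm and LSm, 0.23 and 0.26 for U1, U2, SF3 and U2AF, -0.27 and -0.25 for the tri-snRNP, -0.19 and -0.16 for Prp19 and Cwc, -0.30 and -0.28 for cleavage and polyadenylation, and 0.27 and 0.30 for genes with no part named. With length centring they were 0.27, 0.25, 0.0096, -0.22, -0.18 and 0.36 in that order, so the tri-snRNP median has no firm sign. The related gene list lost its lower member with a pseudocount of 5, leaving 0, and held 2 higher genes in place of 3 with TMM scaling, length centring or no overlapping gene models. NCU02716, at 0.9996 with TMM scaling, fell short of 2-fold by the smallest margin. Using 1 gene model length for both libraries, and 1 entry for each Lsm7 and cwc-22 pair (7 higher), were added after seeing the data. No paired analysis was possible because each strain is 1 pooled library, and no replicate could be left out. Each member had at least 468 reads per library, and the counting interval excluded a ratio of 1 for 58 of 66; variation between cultures was not measured.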

Other observations

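Read together, the 66 genes took 0.741% of the mutant's reads in the table against 0.526% of the wild type's, and their summed RPKM was 5358 against 3625, 1.48-fold higher. The sum rests on the deposited scaling and was not taken under another. With TMM scaling the members' median log2 ratio was 0.10 in place of 0.28. Abundant members weigh most in that sum, and 44 of the 66 log2 ratios lay within the quartiles of all eligible genes. The chromosomal surroundings of the genes past 2-fold differed. SmG has higher neighbours on both sides, NCU10125 with a log2 ratio of 1.71 and NCU09879, 364 bp away, at 55.6 against 23.7 RPKM. SF3b subunit 4 lies 323 bp from the divergent gene of TOM7, a subunit of the mitochondrial import pore, with 265 RPKM against 118. Neighbours of SF3b subunit 10 had log2 ratios of 0.58 and 0.12, and those of NCU11251 0.62 and 0.01. These neighbours were chosen by position, and no test was made.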
